A study of Mus musculus with 8 samples.

Results

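The genes examined here encode 9 mitochondrial enzymes of the tricarboxylic acid (TCA) cycle: Cs, Idh2, Idh3a, Ogdh, Dlst, Suclg1, Sdha, Fh1 and Mdh2. They were followed in 8 RNA-seq libraries of wild-type (WT) mouse embryos, 2 libraries in each of 4 groups: control and TMZ embryos at the 8-cell stage, and control and TMZ embryos at the morula stage. TMZ is trimetazidine, a drug that inhibits the last, thiolase step of long-chain fatty acid β-oxidation. TMZ embryos received it at 100 µM in culture medium from the 2-cell stage onwards by the labels, although the methods name the zygote stage in another sentence, and all groups were cultured in KSOM. The embryos came from ICR mice, an outbred stock. The study calls its replicates biologically independent but gives their number in conflicting ways. The labels neither give the embryos per library nor tie libraries to separate cultures, so the spread between libraries may be partly technical. In the 8-cell table the replicate number of the 2 TMZ columns is identical, so they are named library A and library B.

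The deposited tables hold FPKM (fragments scaled to exon length and to the library's total) without gene names. Each name below was inferred from the order of the entries and from exon lengths recovered from the FPKM values, and was kept where its posterior probability was 0.95 or more. By this rule 26581 of 31899 entries were named in the 8-cell table and 23791 of 29202 in the morula table. Of the 9 enzymes, 8 were named in both tables. Suclg1 had exactly its annotated exon length of 4617 bases, and the recovered lengths of Cs, Idh2, Idh3a and Mdh2 lay 26, 3, 6 and 42 bases below the annotated lengths. The gaps were larger for Sdha, at 173 bases, and for Dlst, at 580 bases. The name nearest to the limit among those kept was Ogdh, with a posterior of 0.993 in the 8-cell table and a recovered length of 5456 bases against 8220 annotated. Fh1 fell outside it, at 0.844 and 0.747, so the values of its most probable entry are given apart and enter no count. The members were chosen from a pathway with fits of these data already known, including the 8-cell contrast, so the 8-cell values and threshold calls of single members are a description, and no p is given for them.

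The TCA cycle oxidises acetyl-CoA, made from pyruvate, fatty acids or amino acids, to carbon dioxide and passes the electrons to the respiratory chain. Citrate synthase joins acetyl-CoA to oxaloacetate, a series of dehydrogenases then removes carbon and electrons, and malate dehydrogenase restores oxaloacetate. Cleavage-stage mouse embryos depend on mitochondrial oxidation of pyruvate, and citrate leaving the cycle is a source of acetyl-CoA outside mitochondria. An mRNA level says nothing direct of enzyme activity or flux.

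Library totals recovered from the tables ran from 31672356 to 64814423 fragments, and library B was the deepest. Entries above 0 numbered 19466 in library A and 25336 in library B. Of 12 genes of the early embryo, 10 averaged 1 FPKM or more in the 8-cell table and 11 in the morula table, with Sox2 at or near 0. None of the named cumulus cell markers reached 1 FPKM in the mean of either table. Of named adult-tissue genes, 2 of 10 in the 8-cell table and 1 of 7 in the morula table did so, with Hba-a1 between 2.46 and 11.3 FPKM at the 8-cell stage. Gapdh, abundant in most cells, was listed at only 0.938 to 3.03 FPKM, although its name had a posterior of 0.9999 at both stages. The cause of this level was not tested. Single names may be wrong even at a high posterior, and a wrong name cannot be told apart here from a low count under a right one.

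The promoters of 3 genes are shown because their values carry the comparisons below. Sdha and Idh2 are the named members with the lowest 8-cell ratios of TMZ to control, and Mdh2 is the member with the highest FPKM. Each run is the 250 bases before the transcription start on the coding strand, from RefSeq on GRCm38.p6. The windows lie at chr13:74350241-74350490 (minus strand), chr7:80115351-80115600 (minus strand) and chr5:135778399-135778648 (plus strand). Capitals mark the palindrome CTCGCGAG.
Sdha: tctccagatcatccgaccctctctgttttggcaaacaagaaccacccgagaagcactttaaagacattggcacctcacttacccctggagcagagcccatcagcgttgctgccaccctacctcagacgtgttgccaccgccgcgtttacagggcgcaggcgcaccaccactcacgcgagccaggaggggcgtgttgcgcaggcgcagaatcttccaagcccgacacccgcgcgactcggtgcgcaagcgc
Idh2: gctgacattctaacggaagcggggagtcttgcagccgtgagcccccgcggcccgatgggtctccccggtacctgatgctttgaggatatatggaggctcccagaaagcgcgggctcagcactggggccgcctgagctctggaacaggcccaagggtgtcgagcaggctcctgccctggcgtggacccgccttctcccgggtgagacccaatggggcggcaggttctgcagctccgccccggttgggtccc
Mdh2: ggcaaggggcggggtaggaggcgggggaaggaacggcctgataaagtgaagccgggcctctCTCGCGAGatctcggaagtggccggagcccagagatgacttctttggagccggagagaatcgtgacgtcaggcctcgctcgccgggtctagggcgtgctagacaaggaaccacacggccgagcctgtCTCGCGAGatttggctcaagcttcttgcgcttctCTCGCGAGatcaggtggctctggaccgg

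Promoter windows were at hand for 8 of the 9 genes, Idh3a being the exception. GC content was 61.6% for Sdha, 67.2% for Idh2 and 63.2% for Mdh2, against a median of 52% over 27025 windows. The windows of the other members ranged from 52.8% for Fh1 to 64.8% for Dlst. Cores of 3 motifs linked to mitochondrial genes were searched on both strands: CCGGAAG (ETS factors), GCATGCGC (NRF1) and AAGGTCA (ERR receptors). They were found in 7.05%, 2.32% and 4.05% of all windows and in 0 of the 8, which says only that these letters are missing there. The palindrome CTCGCGAG, searched after the Mdh2 window had been read, stood 3 times in it, 189, 62 and 28 bases before the start. It was in none of the other 7 windows and in 0.781% of all windows.

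The members spanned more than 2 orders of magnitude in FPKM. In 8-cell controls Mdh2 was listed at 195.5 ± 1.46 FPKM (mean ± SD, n = 2) and Dlst at 0.835 ± 0.135 FPKM. Between them came Suclg1 at 23.8 ± 1.96, Idh2 at 14.8 ± 3.71, Cs at 13.7 ± 6.62, Idh3a at 9.64 ± 4.94, Sdha at 6.44 ± 2.1 and Ogdh at 3.999 ± 0.589 FPKM. The libraries of Idh2 and Cs overlapped, as did those of Cs and Idh3a and of Idh3a and Sdha, so their order was not resolved. Mdh2, Suclg1, Ogdh and Dlst were each apart from their neighbours. FPKM is scaled to the recovered exon length of each gene, which need not be the length of the mRNA present in the embryos. Levels of different genes are therefore only roughly comparable, even where the recovered lengths are right. Mdh2 made up 59.6% to 75.1% of the summed FPKM of the 8 named members in every library.

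The least covered member, Dlst, had at least 190 fragments in every library, and Mdh2 had 22508 to 30538. The share of a member's exonic 31-base words that also occur elsewhere in GRCm39 was lowest for Idh2, at 0%, and highest for Cs, at 8.27%. Whether strand was used in counting is not given in the sources used here, so reads of overlapping antisense genes cannot be told apart.

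**Figure D1:**
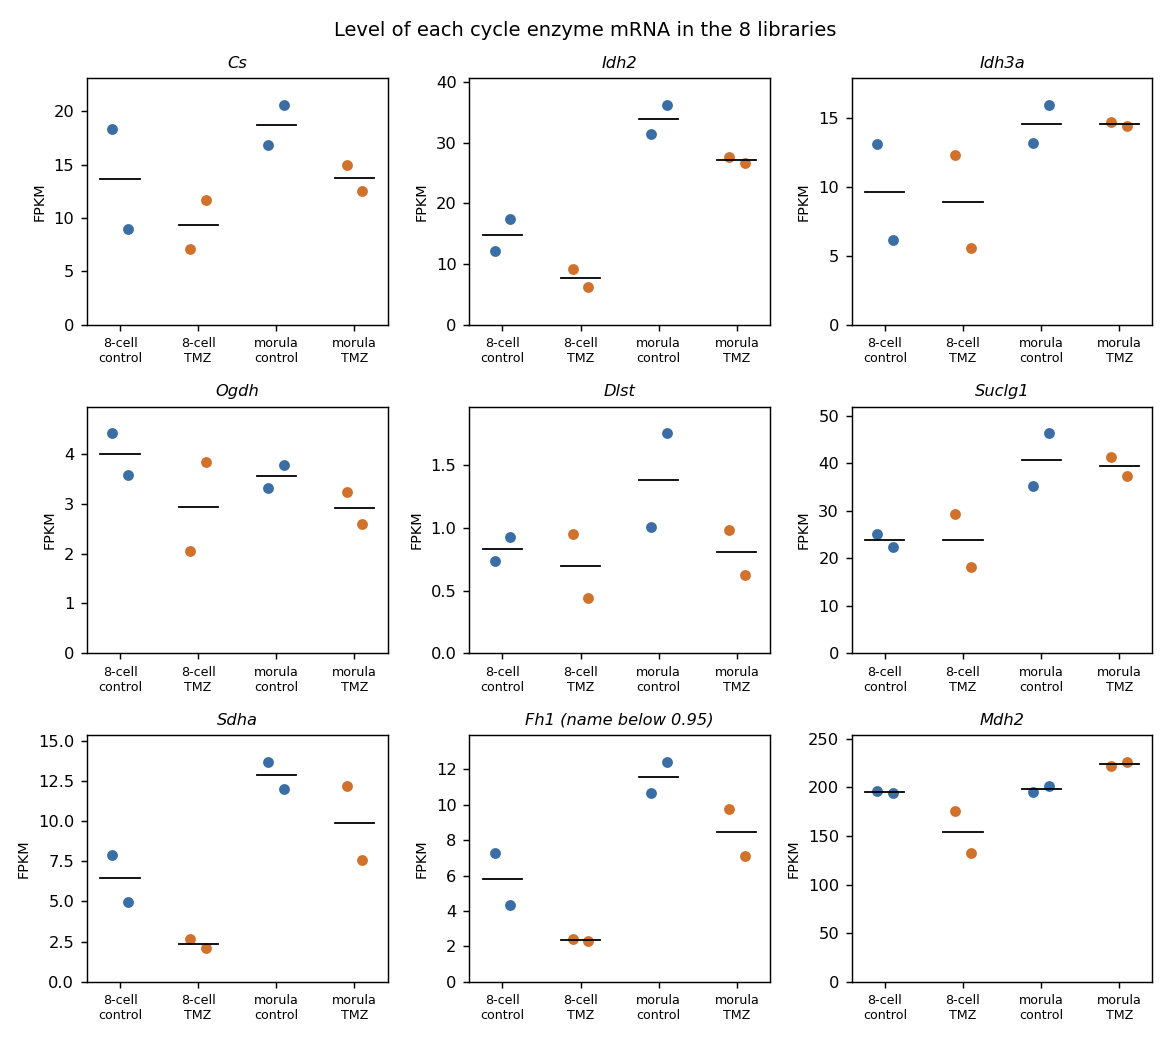
FPKM of each of the 9 enzyme mRNAs (one panel each, linear axis from 0) in 8-cell control, 8-cell TMZ, morula control and morula TMZ embryos. Points are single libraries and lines are group means. Each library is scaled to its own total, and the 8-cell and morula values come from separate tables. Sdha shows the widest gap between 8-cell groups as a ratio of means (36.6%), and Mdh2 the highest level, 132.3 to 226.5 FPKM.

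The first comparison asked how these mRNAs differed between TMZ and control embryos at the 8-cell stage. Sdha and Idh2 were lower in TMZ embryos, at 36.6% and 52.2% of the control mean, and the 2 passed the threshold the study used for its genes (from limma here: unadjusted P under 0.05, log2 fold change larger than 0.5 in size). Cs, Ogdh and Mdh2 had lower means without passing it, and Idh3a and Suclg1 differed by less than 0.11 on the log2 scale. Thus 2 of the 7 tested members were called lower and 0 higher. Among all 10021 entries tested, 4.96% were called lower and 1.35% higher, and 0 had an adjusted p under 0.05 by limma although 632 had an unadjusted P under 0.05. Since the members were proposed with this contrast known, nothing is read from their share. Nor is anything read below from 8-cell groups that did not overlap, since the share of all entries that did so is not given. In morulae such separation was common, at 33.3% of entries with TMZ below the controls and 22.3% above.

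Sdha, on chromosome 13 (74469359 to 74498436, GRCm39), encodes the flavoprotein of succinate dehydrogenase, which is both a cycle enzyme and complex II of the respiratory chain. It was listed at 7.92 and 4.95 FPKM in the controls and at 2.64 and 2.07 FPKM in libraries A and B. Both TMZ libraries lay below both controls, and the controls themselves differed by more than the TMZ libraries did. The log2(FPKM + 1) difference was -1.12 ± 0.40 (SE).

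Idh2, on chromosome 7 (79741431 to 79765535), encodes the NADP-dependent isocitrate dehydrogenase of mitochondria, a source of NADPH. Its values were 12.2 and 17.4 FPKM in controls and 9.18 and 6.30 FPKM in libraries A and B. The groups did not overlap, and the log2 difference was -0.86 ± 0.38 (SE). The call of Idh2 was lost without control 2 (-0.62) and without library B (-0.62). Without control 1 neither gene was called, although the differences were -1.10 for Idh2 and -0.83 for Sdha. Each of these fits leaves a group with 1 library, assumed to vary like the other group.

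Mdh2, on chromosome 5 (135807292 to 135820882), encodes mitochondrial malate dehydrogenase, the last step of the cycle. The controls stood at 196.6 and 194.5 FPKM and libraries A and B at 175.6 and 132.3 FPKM. The groups did not overlap, with a log2 difference of -0.36 ± 0.27 (SE), about 79% of the control mean. Library B was the lower of the TMZ libraries, and without it the difference was -0.15.

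Cs, citrate synthase, which commits acetyl-CoA to the cycle, was listed at 18.4 and 9.01 FPKM in controls and at 7.07 and 11.7 FPKM in libraries A and B. The groups overlapped because of control 2, and the difference of -0.46 was near its SE of 0.43. Without control 1 the difference was 0.015, and without control 2 it was -0.94. Ogdh, the E1 subunit of 2-oxoglutarate dehydrogenase, was at 4.41 and 3.58 FPKM in controls and at 2.06 and 3.83 FPKM under TMZ. Here library B lay within the control range and library A below it. The difference was -0.04 without library A and -0.70 without library B.

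Idh3a, the catalytic alpha subunit of the NAD-dependent isocitrate dehydrogenase, was at 13.1 and 6.15 FPKM in controls and at 12.3 and 5.56 FPKM in libraries A and B. Each group held one high and one low library, and the group means were nearly the same. Its difference ran from -0.62 without library A to 0.40 without library B. Suclg1, the alpha subunit shared by both succinyl-CoA ligases, was at 25.2 and 22.4 FPKM in controls and at 29.3 and 18.3 FPKM under TMZ. The TMZ libraries lay on either side of the controls, with a log2 difference of -0.04 ± 0.35 (SE) that was -0.36 without library A and 0.29 without library B. Dlst, the E2 subunit of 2-oxoglutarate dehydrogenase, averaged under 1 FPKM and was not tested. It was listed at 0.740 and 0.931 FPKM in controls and at 0.948 and 0.442 FPKM under TMZ, which overlapped.

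The entry most probably Fh1, fumarate hydratase, was at 7.25 and 4.35 FPKM in controls and at 2.43 and 2.31 FPKM in libraries A and B. Its groups did not overlap, and the log2 difference was -0.98 ± 0.40 (SE). Its gene lies on chromosome 1 (175425290 to 175453205), next in the cycle after succinate dehydrogenase.

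The median log2 fold change of the 7 tested members was -0.37, beside -0.19 over all entries tested, of which 69.1% were below 0. All 7 were below 0 on the deposited scale, and 5 of 7 under median-ratio scaling, where Idh3a (0.13) and Suclg1 (0.21) were above 0. Leaving out single libraries gave members' medians from -0.25 (without control 1) to -0.62 (without library B), and from -0.13 to -0.45 relative to all entries. Scaling libraries by median ratios moved the median of all entries from -0.19 to 0.01 and the calls over all entries from 497 lower and 135 higher to 280 and 268. Relative to the median of all entries, the members' median was -0.19 without and -0.20 with that scaling, and Idh2 was then not called while Sdha was. In whole embryos, fewer cells and less RNA per cell cannot be told apart, and FPKM gives only shares of a library.

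**Figure D2:**
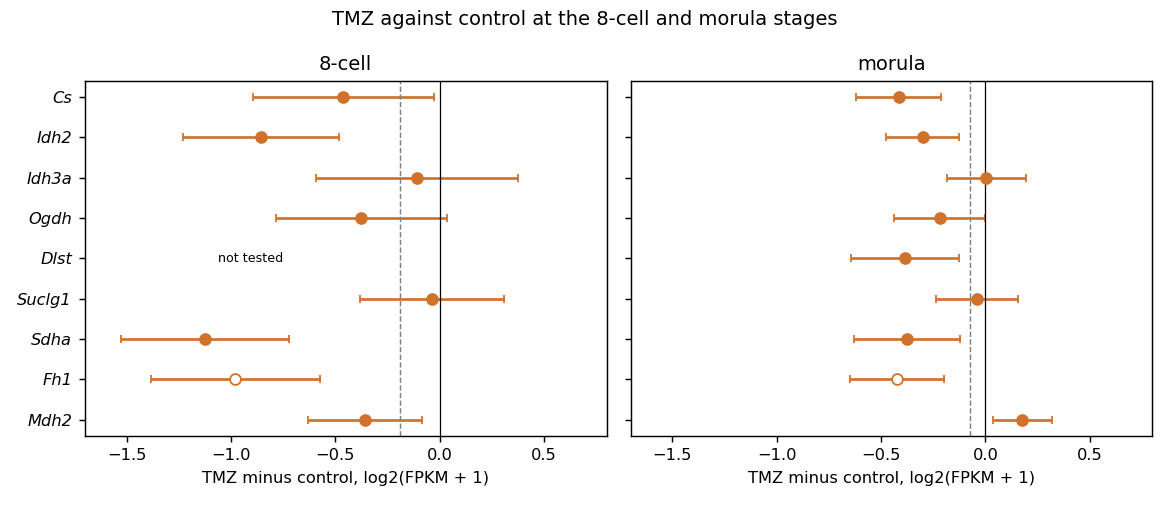
Difference in log2(FPKM + 1), TMZ minus control, for each enzyme at the 8-cell and morula stages, with bars of 1 SE from limma. The solid line marks 0, the dashed line the median of all tested entries (-0.19 and -0.08), and open circles Fh1, whose name was under the limit. Sdha, Fh1 and Idh2 lie farthest left at the 8-cell stage, and all morula values lie between -0.42 and 0.18.

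In morulae the TMZ libraries of Cs, Idh2, Ogdh and Dlst lay below the controls and those of Mdh2 above, but none of these differences passed the threshold. Such separation was common, since TMZ libraries lay below the controls for 33.3% of all entries tested and above them for 22.3%. None of the 8 tested members passed the threshold in either direction, and none had an unadjusted P under 0.05. Over all 9685 entries tested, 10.7% were called lower and 7.16% higher, and 3 had an adjusted p under 0.05 by limma. The members' median log2 fold change was -0.26, against -0.08 over all entries, with 6 of 8 below 0 beside 57.3% of all entries. Whether the effect of TMZ differed between stages was not tested.

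Cs was at 16.9 and 20.6 FPKM in controls and at 15.02 and 12.5 FPKM in TMZ morulae. The groups did not overlap, with a log2 difference of -0.42 ± 0.20 (SE, limma adjusted p = 0.297). Idh2 was at 31.4 and 36.2 FPKM in controls and at 27.7 and 26.7 FPKM under TMZ. Again both TMZ libraries were below both controls, at 80.4% of the control mean, with a difference of -0.30 ± 0.17 (SE, limma adjusted p = 0.357).

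Sdha was at 13.7 and 12.0 FPKM in controls and at 12.2 and 7.61 FPKM in TMZ replicates 1 and 2. The groups overlapped, since TMZ replicate 1 stood between the controls, and the difference of -0.38 ± 0.25 (SE) had a limma adjusted p of 0.423. Without TMZ replicate 1, which leaves TMZ with 1 library assumed to vary like the others, the difference was -0.68 and passed the unadjusted threshold. Dlst was at 1.004 and 1.76 FPKM in controls and at 0.986 and 0.628 FPKM under TMZ, with groups barely apart. Its mean under TMZ was 58.5% of the control mean, and the difference of -0.39 ± 0.26 (SE) had a limma adjusted p of 0.419. With a pseudocount of 0.1 the difference was -0.69.

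Ogdh was at 3.31 and 3.79 FPKM in controls and at 3.24 and 2.59 FPKM under TMZ, a difference of -0.22 ± 0.22 (SE). Suclg1 was at 35.3 and 46.3 FPKM in controls and at 41.4 and 37.3 FPKM under TMZ, both within the control range. Idh3a was at 13.2 and 15.9 FPKM in controls and at 14.7 and 14.4 FPKM under TMZ, again within the control range. The signs of the last 2 were not stable, as Suclg1 became positive under median-ratio scaling and Idh3a changed sign when single libraries were left out.

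Mdh2 was the member with a higher mean in TMZ morulae. Controls were at 195.0 and 201.4 FPKM and TMZ libraries at 221.9 and 226.5 FPKM. Both TMZ libraries exceeded both controls, with a mean at 113.1% of the control mean and a log2 difference of 0.18 ± 0.14 (SE, limma adjusted p = 0.489). The entry most probably Fh1 was at 10.7 and 12.4 FPKM in controls and at 9.77 and 7.09 FPKM under TMZ, with a limma adjusted p of 0.326.

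The summed FPKM of the 12 embryo marker genes moved with the morula groups, from 257.9 and 261.2 in controls to 174.0 and 137.9 under TMZ, while the cumulus list summed to at most 0.207. Not every embryo marker followed the sum, as Krt18 and Gata3 overlapped between the morula groups and Sox2 was at 0. At the 8-cell stage the embryo list summed to 210.4 and 176.2 in controls and to 159.9 and 178.8 in libraries A and B. The part of this in the members' values was not tested.

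The third comparison set the untreated stages side by side. Idh2, Sdha, Suclg1 and Idh3a were listed higher in morula controls than in 8-cell controls, whereas Mdh2 and Ogdh were nearly level. Each stage has its own table, so a difference between tables cannot be told apart from stage, and the values are given without a test. A member was counted where the 2 libraries of each stage did not overlap and the log2 difference exceeded 0.5. By that rule 4 of 8 members were higher and 0 lower. Among the 8729 genes that had a name in each table and averaged 1 FPKM or more over the controls, 11.4% were higher and 19.4% lower.

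Idh2 went from 14.8 ± 3.71 FPKM (SD, n = 2) to 33.8 ± 3.39 FPKM, a ratio of 2.28. Sdha went from 6.44 ± 2.1 to 12.8 ± 1.21 FPKM, a ratio of 2.00. Suclg1 went from 23.8 ± 1.96 to 40.8 ± 7.82 FPKM, a ratio of 1.71. Idh3a went from 9.64 ± 4.94 to 14.6 ± 1.97 FPKM, where 8-cell control 1, at 13.1 FPKM, almost reached the lower morula control at 13.2 FPKM.

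Dlst did not overlap between stages either but differed by 0.36 on the log2 scale, and Cs overlapped through 8-cell control 1. Mdh2, at 195.5 ± 1.46 and 198.2 ± 4.56 FPKM, had a ratio of 1.01, and Ogdh, at 3.999 ± 0.589 and 3.55 ± 0.335 FPKM, one of 0.888. The most probable Fh1 entry had a ratio of 1.99, close to that of Sdha. The median log2 difference of the 8 members was 0.56, beside -0.08 over the 8729 genes. Above 0 were 7 of the 8 members and 3823 of the 8729 genes. Without 8-cell control 2 the members' median was 0.28, and without 8-cell control 1 it was 0.87.

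**Figure D3:**
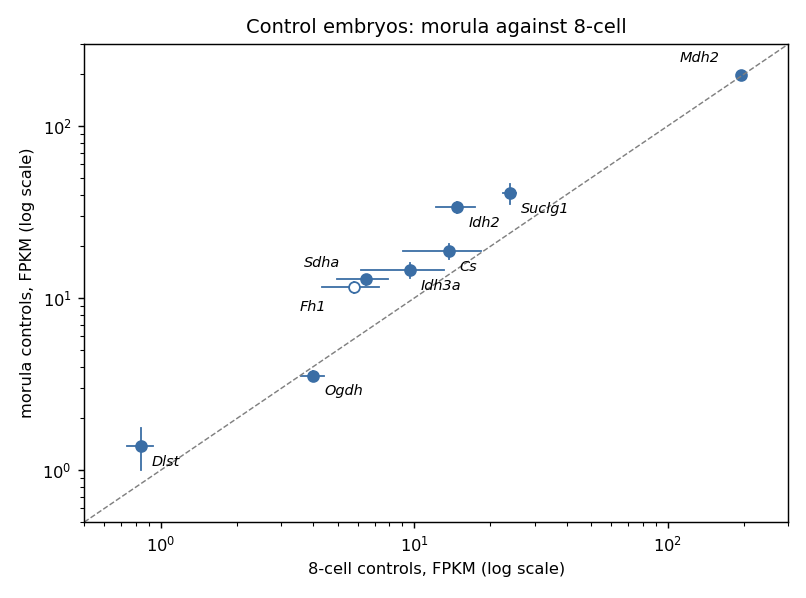
Mean FPKM of each enzyme in morula controls (vertical, log scale) against 8-cell controls (horizontal, log scale), with bars from the lower to the higher library and a dashed line of equal values. Idh2, Sdha, Fh1 (open circle), Suclg1, Idh3a, Cs and Dlst lie above the line, the bars of Cs almost reaching it, and Mdh2 and Ogdh lie near it.

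Several members are subunits of enzymes whose partners were measured too. A list of 9 further subunits gave 8 tested genes at the 8-cell stage. None was called and the median fold change was -0.44 on the log2 scale, with all 8 below 0 as deposited and 6 of 8 under median-ratio scaling. At the morula stage 7 were tested, none was called, 2 were below 0 and the median was 0.14. Under median-ratio scaling Sucla2, a succinyl-CoA ligase beta subunit, passed the threshold there with a log2 difference of 0.53. With that scaling 946 of all 9685 entries were called higher and 772 lower. As deposited, the difference of Sucla2 was 0.43 (limma adjusted p = 0.288).

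The subunits of one complex were listed at very different FPKM, which compare only roughly between genes. Idh3a was present at 0.0241 to 0.0742 times the FPKM of Idh3g, the regulatory gamma subunit, across the 8 libraries. Idh3g was at 205.0 and 255.6 FPKM in 8-cell controls and at 210.4 and 215.0 FPKM in morula controls. In the 2-oxoglutarate dehydrogenase complex, Dld, an E3 subunit shared with pyruvate dehydrogenase, stood at 29.6 ± 7.31 FPKM (SD, n = 2) in 8-cell controls, above Ogdh and Dlst in every library.

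Sdha had the lowest FPKM of the succinate dehydrogenase subunits tested at both stages. Its ratio to Sdhb, the iron-sulphur subunit, was 0.157 and 0.0660 in 8-cell controls and 0.0509 and 0.0611 in libraries A and B. In morulae it was 0.203 and 0.158 in controls and 0.157 and 0.0944 under TMZ. Both TMZ libraries were below both controls at each stage, by a small margin for 8-cell library B and for morula TMZ replicate 1. The recovered length of Sdhb was 2239 bases against 5127 annotated, with a posterior of 0.988 in each table. Sdhc, a membrane anchor, was at 18.9 and 16.2 FPKM in 8-cell controls and at 13.3 and 10.8 FPKM in libraries A and B, but at 25.4 and 27.8 against 29.3 and 26.0 FPKM in morulae. Its groups did not overlap at the 8-cell stage and did so in morulae. Sdhd was named only in the 8-cell table, where its groups overlapped. Of the 4 assembly factors of the enzyme, Sdhaf1 to Sdhaf4, all were tested at both stages and none was called.

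**Figure D4:**
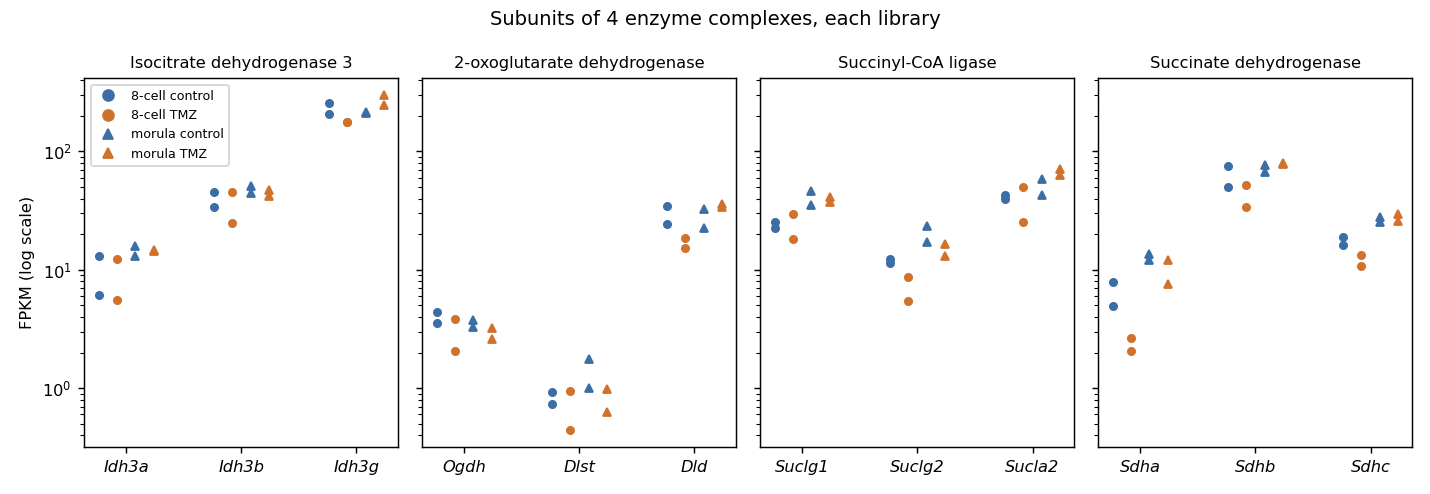
FPKM (log scale) of subunits of 4 enzymes, as labelled, in every library, circles for 8-cell and triangles for morula embryos, blue for control and orange for TMZ. Sdhd and Ogdhl are not shown. Idh3a lies below Idh3b and Idh3g, Ogdh and Dlst lie below Dld, and Sdha lies below Sdhb and Sdhc.

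The routes around the cycle were described by 3 further lists. Of 14 genes for pyruvate entry (the carrier, the pyruvate dehydrogenase complex with its kinases and phosphatases, and pyruvate carboxylase), 8 were tested at the 8-cell stage with none called and a median of 0.03, which is 0.22 above that of all entries. Below 0 were 4 of 8 as deposited and 1 of 8 under median-ratio scaling. In morulae 7 were tested with a median of 0.28, and Mpc1, a subunit of the mitochondrial pyruvate carrier, passed the unadjusted threshold, as 7.16% of all entries did in the higher direction. Mpc1 was at 81.2 and 80.6 FPKM in controls and at 107.2 and 123.6 FPKM under TMZ, a log2 difference of 0.50 ± 0.16 (SE, limma adjusted p = 0.193). In controls Mpc1 went the other way between stages, from 108.9 ± 16.1 to 80.9 ± 0.443 FPKM (SD, n = 2). That log2 difference of -0.42 did not pass the rule used between stages. By the rule 2 of 7 compared genes of this list were lower and 0 higher, beside 19.4% and 11.4% of all genes.

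Of 11 genes that feed or drain the cycle, 6 were tested at each stage, with 0 called at the 8-cell stage and 2 called lower in morulae, where 10.7% of all entries were. Slc25a11, the 2-oxoglutarate and malate carrier, was at 20.3 and 18.3 FPKM in morula controls and at 12.3 and 9.86 FPKM under TMZ (limma adjusted p = 0.169). Slc25a10, the dicarboxylate carrier, was at 6.10 and 10.5 FPKM in controls and at 4.94 and 2.25 FPKM under TMZ (limma adjusted p = 0.213). At the 8-cell stage their log2 differences were -0.63 and -0.71, and neither was called. The median over all entries there was -0.19, with 69.1% of them below 0. Of 5 cytosolic enzymes of citrate, isocitrate and malate, 3 were tested at the 8-cell stage and 5 in morulae, and none was called.

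The mean log2(FPKM + 1) of the 8 named members was 3.82 and 3.53 in 8-cell controls, 3.36 and 3.12 in libraries A and B, 4.10 and 4.30 in morula controls and 4.10 and 3.905 in TMZ morulae. TMZ libraries were below the controls at the 8-cell stage and overlapped them in morulae, where TMZ replicate 1 stood a little above control 1. Over the 8 libraries, the genes whose pattern was most like this mean among 7852 named in both tables were Aldoa, a glycolytic aldolase (Pearson r = 0.998), Dbi, which binds acyl-CoA (r = 0.992), and Sars1, a seryl-tRNA synthetase (r = 0.991). The points come from 2 tables that differ in stage, and the stage difference enters each r.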

How the data were processed

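The authors made libraries from 8-cell and morula embryos with a single-cell full-length mRNA amplification kit. They trimmed reads with fastp (0.23.4), aligned them to GRCm39 with STAR (2.7.9a) and counted genes with featureCounts (2.0.6), by the submitters' processing notes. They deposited FPKM values in 2 tables without gene names, and the annotation release is not given in the sources used here.

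Whole fragment numbers, library totals and exon lengths were solved from the deposited FPKM values. Entries were aligned in order to genes sorted by Ensembl identifier (GENCODE vM39, exon unions of transcripts numbered up to 250000) with a hidden Markov model, and names with a posterior of at least 0.95 were kept. The model's length kernel and transcript limit were chosen by how many entries they named or matched, before fold changes were computed. The model was run on data simulated from its own assumptions, which cannot show wrong names where the annotation or counting differs from them. Of 20893 genes named above 0 in both tables, 12 had incompatible lengths and were dropped.

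Within each table, limma (3.58.1, R 4.3.3, trend) was fitted to log2(FPKM + 1) over all entries averaging 1 FPKM or more, 2 control against 2 TMZ libraries, with Benjamini-Hochberg adjustment. The study's methods use DESeq2 on raw counts, which was not run since the files hold FPKM. Fold changes on this scale understate changes of low genes. Stages were compared without a test. The members and lists were chosen with earlier results of these data known. Named are the 9 members, list genes past the threshold or standing as subunit partners of a member, and the 3 genes most like the members' mean. Subunit partners, quoted markers, the assembly factors of succinate dehydrogenase and Glud1 were named after their values were seen. A gene of the subunit list is not reported here and was left out of its counts.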

Additional observations from a re-analysis of the deposited data

Results flagged for a closer look

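For 5 of the 34 listed genes tested in both tables, every TMZ library lay on one side of the controls at the 8-cell stage and on the other in morulae, as it did for 522 of 7852 genes overall (6.65%). Of these 522 genes, 438 went from lower to higher and 84 from higher to lower, beside 4 and 1 of the listed genes. Their shared direction is thus also the common one among all genes. The difference between stages was not tested, since each stage has its own table. The log2 fold change of Mdh2 was -0.36 in 8-cell embryos and 0.18 in morulae. Among the other listed genes, Idh3g had -0.36 and 0.35, Dld had -0.75 and 0.36, and Sdhaf3, an assembly factor of succinate dehydrogenase, had -0.34 and 0.42. Glud1, glutamate dehydrogenase, which feeds the cycle from glutamate, went the other way with 0.34 and -0.33. None of these passed the threshold at either stage, and all 5 kept these signs under median-ratio scaling, where the 8-cell values were -0.11 for Mdh2, -0.11 for Idh3g and -0.16 for Sdhaf3. Without library B the 8-cell value of Mdh2 was -0.15, which is 0.14 above the median of all entries.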

How the results depend on the processing

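At the 8-cell stage the 2 members called lower (Idh2 and Sdha) were also called with a pseudocount of 0.1, without a filter and at a posterior of 0.99. The count was 1 (Sdha) under median-ratio scaling and 0 with a mean of at least 5 FPKM, where Sdha was not tested and Idh2 was not called at the same -0.86, or with exact lengths, which leave Suclg1 alone. Leaving out single libraries gave 0 to 2 members, with 0 without control 1 and 1 without control 2 or without library B. With the Fh1 entry, an alternative added after the data were seen, it was 3.

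In morulae leaving out single libraries gave 0 to 1 members called lower (Sdha, without TMZ replicate 1), and a median from -0.33 to -0.085, the latter without TMZ replicate 2. The median was -0.040 with exact lengths. Suclg1 turned to 0.056 under median-ratio scaling. Without single libraries Suclg1 ranged from -0.23 to 0.15 and Idh3a from -0.12 to 0.13. The cause of these changes was not tested.

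Between control stages the count of 4 members became 1 with exact lengths, the 1 member left being Suclg1, and 3 to 6 without single libraries.

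Same-numbered morula libraries deviated together with a correlation of 0.08, so the numbers do not show pairing. With the replicate block the morula members called lower remained 0 and their median -0.26, while calls over all entries went from 1040 lower and 693 higher to 1151 and 838. No paired analysis was possible at the 8-cell stage because both TMZ columns carry one number. With 2 libraries per group and one unnamed table per stage, small differences were not detectable.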
